A study of Homo sapiens with 24 samples.

Results

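The subject here is the S-phase gene list of Seurat, a single-cell analysis package that uses it to score cells in DNA synthesis: 40 of the 26475 genes quantified. The genes were taken by name from that list, but the list was chosen with earlier results of these data known. All 40 were read in each of the 24 RNA-seq libraries and all 40 passed the filter on low counts, with a lowest expected count of 27 (DSCC1) in any library. The lowest counts are limited most by counting error. The study asks how the renal lineage transcription factor PAX8 sustains clear cell renal cell carcinoma (ccRCC). 786-M1A and OS-LM1 are metastatic derivatives of the established VHL-mutant ccRCC lines 786-O and OS-RC2. Each line was sequenced with 3 constructs, in 4 replicates a group: sgNTC18, shPAX8-1 and shPAX8-2. The shPAX8 constructs are RNA interference hairpins against PAX8, whereas sgNTC18 carries the prefix of a guide RNA, so the hairpin vector and any difference in how the control cells were made or handled cannot be told apart from loss of PAX8. Both lines carry a luciferase transgene, every group grew in RPMI with serum, and the duration of hairpin expression and the number of independent cultures are not given in the sources used here, so the p-values measure only the spread between these libraries, which may be technical.

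Replication of the genome begins with licensing, when the MCM2 to MCM7 helicase ring is loaded at origins in G1. In S phase CDC45 and the GINS complex join the ring to form the active helicase, DNA polymerase alpha with its primase lays primers, and the sliding clamp PCNA, loaded by the RFC complex, holds the polymerases on the template. Ribonucleotide reductase and thymidylate synthase supply the deoxynucleotides, histone chaperones refill the chromatin behind the fork, and many of these genes are transcribed together in late G1 under E2F transcription factors. In bulk RNA, fewer cells in S phase and less of a transcript per cell cannot be told apart.

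The hairpins are shown because every contrast below rests on them. Each is the guide strand, 5′ to 3′, with the seed (bases 2 to 8) in capitals.
shPAX8-1: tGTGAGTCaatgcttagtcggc
shPAX8-2: tAGAGTTGtgttaataatggag
All 22 bases of the shPAX8-1 guide were complementary to the PAX8 transcript at hg38 chr2:113241690-113241711 (gene on the minus strand), within a coding exon of the canonical transcript and within an exon of 10 of 14 annotated transcripts. All 22 bases of the shPAX8-2 guide were complementary at chr2:113218122-113218143, in an untranslated exon of the canonical transcript and within an exon of 7 of the 14. Neither seed is shared with the other hairpin.

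PAX8 itself was lower with both hairpins. In 786-M1A it stood at 292, 393, 359.8 and 319 CPM (counts scaled to a common library size by the TMM method, an abundance unit per library) with sgNTC18, at 22.9, 21.9, 15.2 and 14.8 with shPAX8-1 and at 41.4, 45.5, 42.6 and 39.99 with shPAX8-2. OS-LM1 held 262, 279, 245 and 254 CPM with sgNTC18, 85.6, 78.4, 59.9 and 89.2 with shPAX8-1 and 76.2, 63.8, 97.0 and 79.9 with shPAX8-2. No hairpin library overlapped the sgNTC18 libraries of its line. The fold reduction was 17.9 and 7.93 in 786-M1A and 3.38 and 3.27 in OS-LM1, for shPAX8-1 and shPAX8-2 in that order (edgeR quasi-likelihood test, Benjamini-Hochberg adjusted p between 3.7e-11 and 9.3e-10). In OS-LM1 the hairpins did not separate for PAX8 (log2 difference -0.05 ± 0.12 SE, adjusted p = 0.8), whereas in 786-M1A shPAX8-1 left 2.26-fold less (adjusted p = 4e-05). The antisense gene PAX8-AS1 shares exonic bases with PAX8, and whether strand was used in the counting is not given in the sources used here.

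Library totals ran from 11634419 to 52059375 expected counts, and the sgNTC18 libraries were deeper (median 32029483 against 18200166 for the hairpin libraries). Among the markers of renal epithelium and ccRCC, CDH6 (mean 51.3 and 64.3 TPM, an abundance corrected for transcript length, with sgNTC18 in 786-M1A and OS-LM1) was present in both lines, while the carbonic anhydrase CA9 was at 0 TPM in all sgNTC18 libraries of 786-M1A. These markers moved with the hairpins in both directions. CDH6 was at a mean of 6.47 and 6.07 TPM with shPAX8-1 and shPAX8-2 in 786-M1A and 9.43 and 9.04 in OS-LM1, while in OS-LM1 CA9 went from 7.31 with sgNTC18 to 49.0 and 33.0. The keratin KRT18 went from 278.5 to 128.2 and 192.7 TPM in 786-M1A and from 262.1 to 515.9 and 641.3 in OS-LM1. Summed over the list of 10 markers, in which VIM weighed most, the level was 8360 to 8926 TPM with sgNTC18 and 6401 to 7243 with a hairpin in 786-M1A, and 7737 to 10270 and 4374 to 6326 in OS-LM1. The 4 endothelial markers summed to at most 0.38 TPM in any library and CD3E was at 0 throughout. The summed leukocyte markers moved with the hairpins in both lines (0.29 to 0.71 TPM with sgNTC18 and 1.14 to 2.97 with a hairpin in 786-M1A, 0.43 to 0.58 and 2.04 to 4.87 in OS-LM1), mostly through CD14. Of the 4 fibroblast markers PDGFRB alone was high in 786-M1A (mean 195.9, 90.2 and 232.4 TPM with sgNTC18, shPAX8-1 and shPAX8-2), with DCN and PDGFRA at or below 0.07 TPM in those 12 libraries, while LUM was at a mean of 0.905, 4.98 and 4.54 TPM in 786-M1A and 0.455, 1.75 and 0.585 in OS-LM1. The part of these transcripts in the results below was not tested.

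The 4 shPAX8-1 libraries of 786-M1A fell into pairs: replicates 1 and 2 and replicates 3 and 4 were close to each other (chi-square per gene of 14.1 and 3.73), while the 4 comparisons across the pairs gave 44.7 to 77.4. The shPAX8-2 libraries of 786-M1A fell into the same pairs, less widely (3.96 and 11.7 within pairs, 14.9 to 19.2 across them), with S-phase sums of 1202 and 1163 CPM in replicates 1 and 2 and 1435 and 1400 in replicates 3 and 4. Within the other groups the values ran from 5.27 to 89.5. Counts in 786-M1A are therefore also given for each pair of shPAX8-1 set against all libraries of the other groups, and for the same pair of both hairpins, alternatives chosen after seeing the data. The shares of all genes called with these pairs are not given here. No pair of replicates was alike within sampling noise.

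Most S-phase genes were lower with either hairpin in either line. Summed over the 40 genes, the level in 786-M1A was 2945, 2653, 2858 and 2786 CPM with sgNTC18, 806, 998, 1039 and 1056 with shPAX8-1 and 1202, 1163, 1435 and 1400 with shPAX8-2. In OS-LM1 the sums were 2918, 2525, 2922 and 2685 CPM with sgNTC18, 1025, 1020, 1071 and 975 with shPAX8-1 and 1440, 1632, 1341 and 1516 with shPAX8-2. The sgNTC18 sums lay apart from all hairpin sums in both lines, and the shPAX8-1 sums lay below all shPAX8-2 sums of the same line. In 786-M1A with shPAX8-1, 33 of the 40 genes were lower than with sgNTC18 and 0 higher at an adjusted p under 0.05, where 34.5% of all 14452 genes tested were lower and 36.1% higher. The median log2 fold change of the 40 genes was -1.43, against 0.03 over all genes. With shPAX8-1 replicates 1 and 2 alone 37 genes were lower, and with replicates 3 and 4 alone 31 were lower and 1, CASP8AP2, was higher (log2 fold change 0.53 ± 0.16 SE, adjusted p = 0.0073). With shPAX8-2, 37 were lower and 0 higher (median -0.91), against 30.9% and 31.5% of all genes, and 39 and 34 were lower with shPAX8-2 replicates 1 and 2 and replicates 3 and 4 alone. In OS-LM1, 38 were lower with shPAX8-1 (median -1.59; background 35.8% lower and 35.6% higher of 15049 genes) and 35 with shPAX8-2 (median -0.87; 34.1% and 34.3%), and 0 were higher with either. In each of the 4 contrasts the count of higher genes was also 0 at an unadjusted p under 0.05 with edgeR and with DESeq2 at an adjusted p under 0.05.

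**Figure D1:**
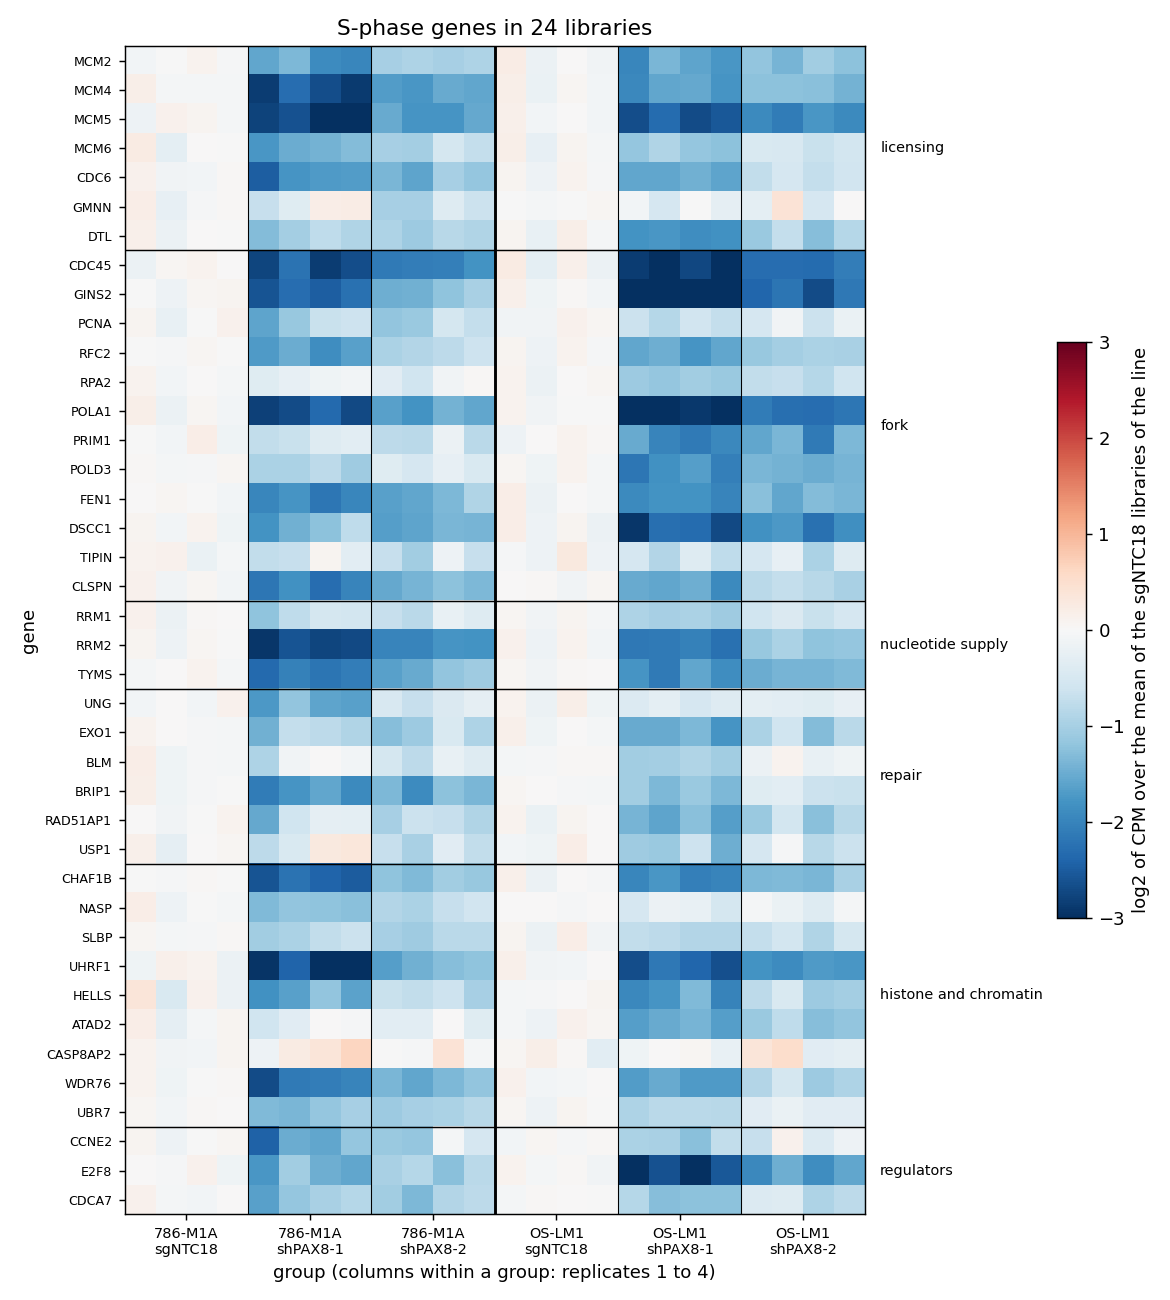
Rows are the 40 S-phase genes, grouped by role, and columns are the 24 libraries by line and construct (replicates 1 to 4 from left to right). Colour gives the log2 of the CPM over the mean of the 4 sgNTC18 libraries of the same line, limited to 3 in either direction, with blue for lower. Nearly all rows were blue in the hairpin columns, with CASP8AP2 and, in 786-M1A, GMNN, RPA2, ATAD2, BLM and USP1 among the palest.

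The genes shared between lines were counted from separate libraries. With shPAX8-1 all 33 genes lower in 786-M1A were also among the 38 lower in OS-LM1 (100% of the first and 86.8% of the second). The other 5 of OS-LM1 were ATAD2, BLM, RPA2, TIPIN and USP1. With shPAX8-2, 33 were lower in both lines, 89.2% of the 37 in 786-M1A and 94.3% of the 35 in OS-LM1. As 38 and 35 of the 40 genes were lower in OS-LM1, most of this overlap was set by the counts themselves. Of all genes tested, 34.5% and 30.9% were lower in 786-M1A and 35.8% and 34.1% in OS-LM1, with shPAX8-1 and shPAX8-2. The share of all genes lower in both lines is not given here.

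Among the licensing genes, 6 of 7 were lower with shPAX8-1 and 7 of 7 with shPAX8-2 in 786-M1A, and 6 of 7 with each hairpin in OS-LM1. MCM4, a subunit of the helicase ring, was read at 320.1, 272, 274 and 272 CPM with sgNTC18, 39.6, 58.2, 44.7 and 39.0 with shPAX8-1 and 88.6, 84.2, 99.7 and 96.7 with shPAX8-2 in 786-M1A. The OS-LM1 libraries had 114, 87.8, 105 and 94.5 CPM with sgNTC18, 26.3, 34.1, 34.7 and 29.3 with shPAX8-1 and 42.7, 42.7, 42.1 and 37.4 with shPAX8-2. The 3 groups of each line did not overlap, and shPAX8-1 gave the lowest level in both. MCM4 was 6.17-fold lower with shPAX8-1 in 786-M1A (log2 fold change -2.63 ± 0.13 SE, adjusted p = 3.8e-10) and 3.27-fold lower in OS-LM1 (-1.71 ± 0.10, adjusted p = 2.9e-11). MCM2, another subunit, stood at 89.6, 95.4, 103 and 93.8 CPM with sgNTC18, 32.6, 37.3, 25.9 and 24.5 with shPAX8-1 and 47.7, 50.3, 47.7 and 50.2 with shPAX8-2 in 786-M1A. For OS-LM1 its values were 92.7, 70.8, 81.0 and 74.7 CPM with sgNTC18, 20.6, 30.9, 26.8 and 23.9 with shPAX8-1 and 35.1, 30.3, 38.6 and 34.1 with shPAX8-2. Each hairpin group lay below the sgNTC18 group of its line, while the hairpin groups overlapped in OS-LM1. The reduction of MCM2 was close in the lines, 3.13-fold and 3.18-fold with shPAX8-1 (difference between lines on the log2 scale 0.02 ± 0.18 SE, adjusted p = 0.93). An unnamed antisense transcript shares exonic bases with MCM2.

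MCM5 had the largest reduction of the licensing genes, from 118 ± 10.9 to 13.8 ± 5.11 CPM (SD, n = 4) with shPAX8-1 in 786-M1A and from 97.4 ± 7.75 to 16.8 ± 2.11 in OS-LM1 (log2 fold change -3.07 and -2.56). MCM6 went from 60.6 ± 9.14 to 21.6 ± 2.7 and from 69.0 ± 8.68 to 31.9 ± 3.41 CPM in the same contrasts. CDC6, the ATPase that helps to load the ring, fell by 1.85 on the log2 scale in 786-M1A and by 1.56 in OS-LM1 with shPAX8-1. DTL, a receptor subunit of the ubiquitin ligase that removes CDT1 in S phase, fell by 0.96 and by 1.83. GMNN was the exception. It encodes geminin, the protein that binds CDT1 to prevent relicensing, and measured 13.9 ± 1.75 CPM with sgNTC18, 12.9 ± 3.84 with shPAX8-1 and 8.37 ± 1.75 with shPAX8-2 in 786-M1A, and 23.7 ± 0.899, 20.7 ± 3.06 and 22.9 ± 6.54 in OS-LM1. It was called only with shPAX8-2 in 786-M1A among the 4 contrasts with sgNTC18 (-0.72 ± 0.21, adjusted p = 0.007). With shPAX8-1 replicates 1 and 2 alone it was also lower in 786-M1A (-0.53 ± 0.19, adjusted p = 0.019), and with replicates 3 and 4 alone it was at 0.23 ± 0.17 (adjusted p = 0.23).

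At the fork, 10 of 12 genes were lower with shPAX8-1 and 11 with shPAX8-2 in 786-M1A, and all 12 with each hairpin in OS-LM1. RFC2, a subunit of the clamp loader, gave 95.3, 92.3, 99.1 and 94.7 CPM with sgNTC18, 29.3, 34.2, 26.0 and 30.9 with shPAX8-1 and 49.6, 52.2, 55.7 and 61.6 with shPAX8-2 in 786-M1A. The corresponding OS-LM1 values were 109, 91.7, 109.9 and 99.8 CPM with sgNTC18, 34.6, 37.0, 30.2 and 34.9 with shPAX8-1 and 46.8, 50.6, 53.2 and 52.1 with shPAX8-2. All 3 groups were separate in each line, with the same order of constructs. The log2 fold change with shPAX8-1 was -1.64 ± 0.11 SE in 786-M1A and -1.61 ± 0.09 in OS-LM1 (adjusted p = 4.9e-09 and 5.7e-12). GINS2, part of the active helicase, was measured at 61.5, 55.8, 64.1 and 65.2 CPM with sgNTC18, 10.2, 12.7, 11.1 and 13.0 with shPAX8-1 and 22.4, 22.6, 26.8 and 31.2 with shPAX8-2 in 786-M1A. In OS-LM1 it measured 91.0, 74.6, 83.8 and 77.2 CPM with sgNTC18, 6.51, 8.25, 8.99 and 8.65 with shPAX8-1 and 15.8, 17.97, 12.6 and 18.6 with shPAX8-2. No groups overlapped, and for either hairpin the OS-LM1 libraries lay below the 786-M1A libraries while the sgNTC18 libraries lay above them. Its 10.2-fold reduction with shPAX8-1 in OS-LM1 (-3.35 ± 0.13, adjusted p = 5.5e-14) was the largest of the 40 genes in any of these contrasts.

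POLA1, the catalytic subunit of DNA polymerase alpha, and CDC45, the partner of GINS in the helicase, were also among the genes with the largest reductions. POLA1 went from 33.7 ± 3.43 to 5.49 ± 0.847 CPM with shPAX8-1 in 786-M1A and from 35.8 ± 2.15 to 4.22 ± 0.618 in OS-LM1, and CDC45 from 39.1 ± 3.33 to 6.49 ± 1.36 and from 37.6 ± 6.73 to 4.74 ± 0.825. FEN1, the nuclease that trims Okazaki fragments, fell by 1.94 and by 1.89 on the log2 scale with shPAX8-1 in 786-M1A and OS-LM1. CLSPN, the checkpoint adaptor claspin, fell by 2.03 and by 1.63. PCNA changed less, from 122 ± 12.6 to 63.1 ± 18.5 CPM and from 306 ± 25.4 to 189 ± 15.1 CPM with shPAX8-1, although it was the most abundant of the 40 genes per transcript length in OS-LM1 (413 ± 33.4 TPM with sgNTC18, against 174 ± 21.1 in 786-M1A). The files also list a PCNA antisense gene and a PCNA pseudogene, between which reads could have been split. TIPIN, a fork protection factor, and RPA2, a subunit that coats single-stranded DNA, were not called with shPAX8-1 in 786-M1A (-0.36 ± 0.21 and -0.18 ± 0.13, adjusted p = 0.13 and 0.22) and were lower in OS-LM1 (-0.64 and -1.13, adjusted p = 0.00079 and 2.2e-09). DSCC1, part of an alternative clamp loader, had the lowest count in any library (27, in OS-LM1 with shPAX8-1), but its counts were not the lowest in 786-M1A. It went from 23.3 ± 1.92 to 9.79 ± 2.99 CPM in 786-M1A and from 9.89 ± 1.28 to 1.73 ± 0.369 CPM in OS-LM1 with shPAX8-1.

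All 3 genes of nucleotide supply were lower in all 4 contrasts with sgNTC18. RRM2, the small subunit of ribonucleotide reductase and the most abundant of the 40 genes in 786-M1A (272 ± 25.0 TPM with sgNTC18), stood at 505, 432, 499.7 and 474 CPM with sgNTC18, 62.9, 79.2, 70.5 and 73.5 with shPAX8-1 and 122, 121, 141 and 139 with shPAX8-2. Its OS-LM1 values were 594, 493, 585 and 515 CPM with sgNTC18, 125, 125, 133 and 116 with shPAX8-1 and 251, 285, 235 and 246 with shPAX8-2. In both lines shPAX8-1 was lowest and sgNTC18 highest, without overlap. The reduction with shPAX8-1 was 6.58-fold in 786-M1A (-2.72 ± 0.10, adjusted p = 3.3e-11) and 4.46-fold in OS-LM1 (-2.15 ± 0.09, adjusted p = 9.6e-14). TYMS, thymidylate synthase, was read at 157, 165, 178 and 157 CPM with sgNTC18, 32.5, 40.5, 36.1 and 39.1 with shPAX8-1 and 53.1, 57.2, 72.5 and 78.7 with shPAX8-2 in 786-M1A. OS-LM1 had 153, 138, 152 and 148 CPM with sgNTC18, 43.5, 34.1, 49.8 and 40.4 with shPAX8-1 and 53.0, 56.2, 56.4 and 58.8 with shPAX8-2. The groups were again separate, at 4.37-fold and 3.58-fold below sgNTC18 with shPAX8-1. ENOSF1 and TYMSOS overlap exons of TYMS on the other strand. RRM1, the large reductase subunit, changed by less than RRM2, with a log2 fold change of -0.72 ± 0.15 in 786-M1A and -1.01 ± 0.08 in OS-LM1 with shPAX8-1, and -0.49 and -0.54 with shPAX8-2.

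**Figure D2:**
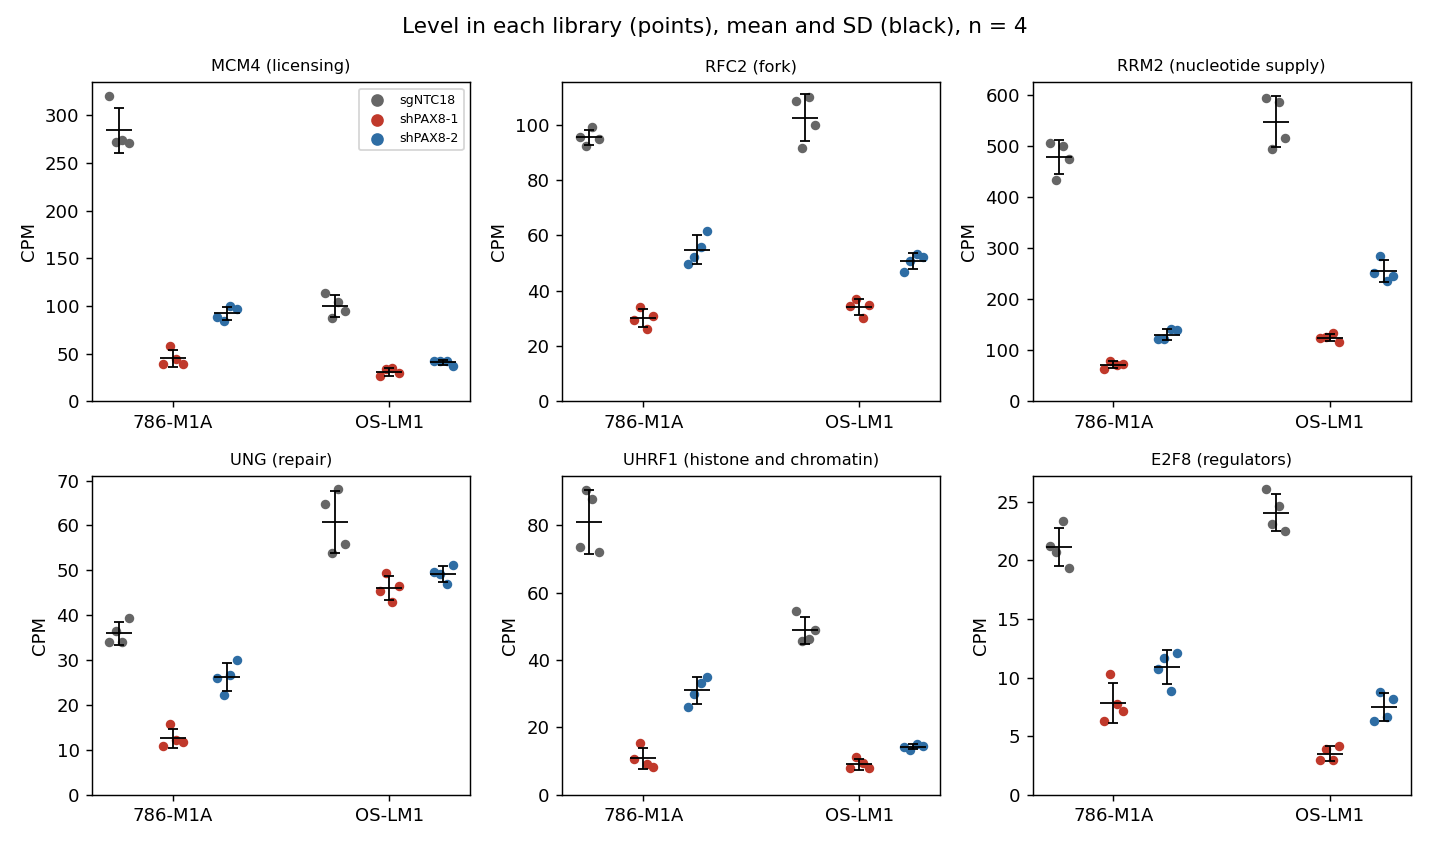
Each panel plots CPM of 1 gene, the first of its role by the ranking rule, in the 24 libraries, with 4 points a group, a black bar for the mean and error bars for 1 SD. In MCM4, RFC2, RRM2 and UHRF1 shPAX8-1 (red) lay below shPAX8-2 (blue) and both below sgNTC18 (grey), while UNG in OS-LM1 had the smallest reductions of the 6 genes.

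All 6 repair genes were lower with shPAX8-2 in 786-M1A and with shPAX8-1 in OS-LM1, and 4 and 5 in the other contrasts with sgNTC18. Their median log2 fold change was -0.75 with shPAX8-1 in 786-M1A and -1.14 in OS-LM1. UNG, the glycosylase that removes uracil from DNA, was at 34.0, 36.4, 34.1 and 39.4 CPM with sgNTC18, 10.9, 15.7, 12.1 and 11.7 with shPAX8-1 and 25.9, 22.2, 26.7 and 29.9 with shPAX8-2 in 786-M1A. In OS-LM1 the values were 64.8, 53.9, 68.2 and 55.8 CPM with sgNTC18, 45.5, 49.5, 43.0 and 46.5 with shPAX8-1 and 49.6, 49.1, 47.0 and 51.1 with shPAX8-2. The hairpin groups were separate in 786-M1A and overlapped in OS-LM1. UNG was 2.81-fold lower with shPAX8-1 in 786-M1A (adjusted p = 1.4e-07) and 1.34-fold lower in OS-LM1 (adjusted p = 0.0003), and the lines differed (1.11 ± 0.16, adjusted p = 1.2e-06). BRIP1, a helicase of the Fanconi anaemia pathway, had 30.9, 25.3, 26.7 and 27.3 CPM with sgNTC18, 6.48, 8.15, 9.33 and 7.29 with shPAX8-1 and 10.9, 7.45, 11.7 and 10.7 with shPAX8-2 in 786-M1A. Its OS-LM1 libraries read 39.2, 38.2, 36.8 and 36.2 CPM with sgNTC18, 18.1, 14.7, 17.5 and 14.9 with shPAX8-1 and 29.1, 30.3, 24.1 and 23.8 with shPAX8-2. Every hairpin library lay below sgNTC18, and only in OS-LM1 did the hairpin groups separate (shPAX8-1 against shPAX8-2 -0.74 ± 0.11, adjusted p = 5.2e-05, against -0.37 ± 0.16 and 0.062 in 786-M1A). The test between lines of this difference gave an adjusted p of 0.19.

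USP1, which removes ubiquitin from PCNA and FANCD2, showed the pairing of the 786-M1A shPAX8-1 libraries: it had 23.5, 17.6, 21.2 and 22.1 CPM with sgNTC18, 12.2, 15.3, 26.0 and 26.6 with shPAX8-1 and 13.1, 10.8, 16.7 and 12.6 with shPAX8-2. With replicates 1 and 2 alone its log2 fold change against sgNTC18 was -0.62 (adjusted p = 0.004), and with replicates 3 and 4 alone 0.33 (adjusted p = 0.058). In OS-LM1 it had 21.4, 20.9, 26.0 and 23.0 CPM with sgNTC18, 10.98, 10.6, 14.8 and 8.31 with shPAX8-1 and 16.1, 22.4, 12.8 and 14.5 with shPAX8-2, and both hairpins were called (-1.06 and -0.48, adjusted p = 1.7e-05 and 0.016), the second with overlapping groups and lost on leaving out any of sgNTC18 replicate 3 or shPAX8-2 replicates 3 and 4 (adjusted p 0.051 to 0.061). BLM, the Bloom syndrome helicase, was at 9.28, 7.35, 7.86 and 7.73 CPM with sgNTC18, 4.24, 7.44, 8.07 and 7.57 with shPAX8-1 and 5.58, 4.64, 6.88 and 6.13 with shPAX8-2 in 786-M1A, where shPAX8-1 replicate 1 stood below the other libraries of its group. In OS-LM1 it was at 12.2, 12.5, 13.1 and 13.2 CPM with sgNTC18, 6.22, 6.3, 6.82 and 6.22 with shPAX8-1 and 11.3, 13.7, 10.8 and 11.7 with shPAX8-2, lower with shPAX8-1 (-1.02 ± 0.11, adjusted p = 1.3e-07) but not called with shPAX8-2 (-0.10 ± 0.11, adjusted p = 0.42). The call for shPAX8-2 in 786-M1A (adjusted p = 0.048) was lost on leaving out any of 7 libraries (adjusted p up to 0.15). EXO1, an exonuclease of mismatch repair and resection, fell by 0.91 on the log2 scale with shPAX8-1 in 786-M1A and by 1.55 in OS-LM1. RAD51AP1, a factor of homologous recombination, fell by 0.58 and by 1.49, the first lost without sgNTC18 replicate 4 of 786-M1A (adjusted p = 0.051).

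Of the 9 histone and chromatin genes, 7 were lower with each hairpin in 786-M1A, and 8 and 7 with shPAX8-1 and shPAX8-2 in OS-LM1. UHRF1, which brings DNA methyltransferase to newly copied DNA, stood at 73.7, 90.6, 87.7 and 72.1 CPM with sgNTC18, 10.5, 15.3, 9.03 and 8.18 with shPAX8-1 and 25.9, 29.9, 33.2 and 35.1 with shPAX8-2 in 786-M1A. It had 54.5, 45.5, 46.2 and 48.9 CPM with sgNTC18, 7.78, 11.1, 9.31 and 7.85 with shPAX8-1 and 14.1, 13.2, 15.0 and 14.5 with shPAX8-2 in OS-LM1. The 3 groups did not overlap in either line. The reduction with shPAX8-1 was 7.38-fold and 5.52-fold (log2 -2.88 ± 0.18 and -2.46 ± 0.12, adjusted p = 3.3e-09 and 6.2e-13). CHAF1B, a subunit of chromatin assembly factor 1, was at 44.6, 44.5, 46.6 and 45.1 CPM with sgNTC18, 7.53, 9.75, 8.49 and 8.06 with shPAX8-1 and 19.6, 18.1, 21.8 and 20.5 with shPAX8-2 in 786-M1A. Its levels in OS-LM1 were 46.1, 36.7, 41.9 and 40.4 CPM with sgNTC18, 10.7, 12.4, 9.91 and 10.4 with shPAX8-1 and 16.2, 16.4, 15.9 and 21.1 with shPAX8-2. Again all groups were separate, at 5.26-fold and 3.87-fold below sgNTC18 with shPAX8-1.

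HELLS, a chromatin remodeller, went from 8.53 ± 2.1 to 2.93 ± 0.564 CPM with shPAX8-1 in 786-M1A and from 19.4 ± 0.837 to 5.85 ± 1.37 in OS-LM1, and WDR76 from 28.5 ± 1.97 to 6.24 ± 1.23 and from 36.8 ± 2.38 to 11.7 ± 0.786. The histone H3-H4 chaperone NASP was lower with shPAX8-1 in both lines, with log2 fold changes of -1.22 ± 0.12 in 786-M1A and -0.37 ± 0.11 in OS-LM1. SLBP, which binds the stem-loop of histone mRNA, had log2 fold changes of -0.81, -0.90, -0.84 and -0.66 with shPAX8-1 and shPAX8-2 in 786-M1A and then in OS-LM1. UBR7, a ubiquitin ligase with a histone-binding finger, had -1.18, -0.94, -0.86 and -0.30. ATAD2, a bromodomain ATPase, had 137, 98.1, 114 and 124 CPM with sgNTC18, 78.3, 94.0, 118 and 116 with shPAX8-1 and 94.4, 95.0, 118 and 92.6 with shPAX8-2 in 786-M1A, overlapping throughout and not called (adjusted p = 0.23 and 0.19). In OS-LM1 it had 52.3, 49.1, 59.2 and 56.8 CPM with sgNTC18, 17.3, 18.9, 20.7 and 17.4 with shPAX8-1 and 25.3, 32.0, 22.3 and 23.9 with shPAX8-2, 3 separate groups (-1.57 ± 0.12 with shPAX8-1, adjusted p = 4e-10). CASP8AP2, needed for histone mRNA processing, was called in none of the 6 contrasts within a line. It measured 7.99 ± 0.625, 9.88 ± 2.19 and 8.5 ± 1.41 CPM in 786-M1A and 7.43 ± 1.054, 7.09 ± 0.609 and 8.06 ± 2.44 in OS-LM1 with sgNTC18, shPAX8-1 and shPAX8-2, and was the least abundant of the 40 genes per length in both lines (2.24 ± 0.23 and 1.95 ± 0.273 TPM with sgNTC18).

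The last 3 genes are regulators. E2F8, a repressor E2F, had 21.2, 20.7, 23.3 and 19.4 CPM with sgNTC18, 6.27, 10.3, 7.71 and 7.18 with shPAX8-1 and 10.8, 11.7, 8.87 and 12.1 with shPAX8-2 in 786-M1A. OS-LM1 libraries held 26.1, 23.1, 24.6 and 22.5 CPM with sgNTC18, 2.96, 3.92, 2.97 and 4.14 with shPAX8-1 and 6.3, 8.78, 6.61 and 8.16 with shPAX8-2. The sgNTC18 levels overlapped between lines, while for either hairpin the OS-LM1 libraries lay below the 786-M1A libraries. E2F8 was 2.65-fold lower with shPAX8-1 in 786-M1A (adjusted p = 1.1e-06) and 7.0-fold lower in OS-LM1 (adjusted p = 1.9e-12). CDCA7, a partner of HELLS, had 102, 91.0, 88.8 and 95.7 CPM with sgNTC18, 30.3, 42.5, 47.8 and 52.1 with shPAX8-1 and 45.8, 37.4, 51.3 and 55.1 with shPAX8-2 in 786-M1A. In OS-LM1 there were 36.1, 38.7, 38.1 and 37.3 CPM with sgNTC18, 20.8, 15.6, 15.98 and 15.9 with shPAX8-1 and 28.3, 28.8, 19.9 and 21.7 with shPAX8-2. The hairpin groups overlapped in both lines and both lay below sgNTC18 (-1.11 ± 0.15 and -1.17 ± 0.13 with shPAX8-1). CCNE2, cyclin E2, went from 12.1 ± 0.931 to 4.02 ± 1.31 and 7.83 ± 2.96 CPM in 786-M1A and from 9.33 ± 0.394 to 4.77 ± 0.672 and 7.83 ± 1.93 in OS-LM1 with shPAX8-1 and shPAX8-2. Its shPAX8-2 call in 786-M1A (adjusted p = 0.039) had groups that overlapped, was lost on leaving out any of 6 libraries (adjusted p up to 0.13) and rested on replicates 1 and 2 (-1.12, adjusted p = 8.7e-05, against -0.24 and 0.23 with replicates 3 and 4 alone). In OS-LM1 the shPAX8-2 value was not called (adjusted p = 0.16) and INTS8 overlaps its exons on the other strand.

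**Figure D3:**
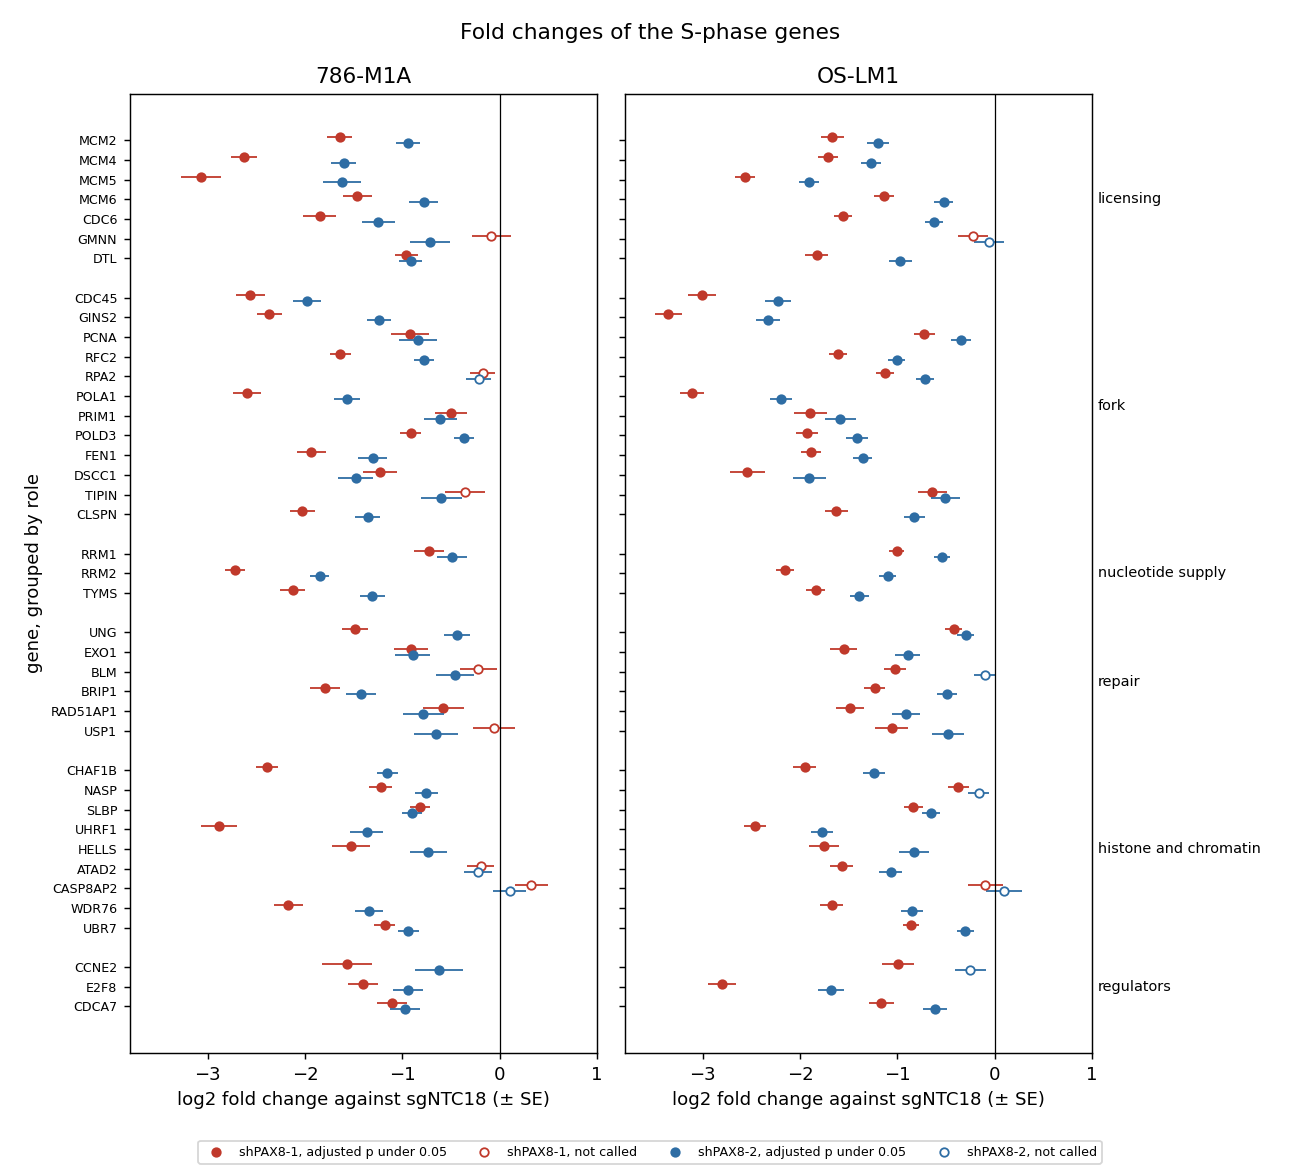
Points are log2 fold changes against sgNTC18 (x axis) with bars of 1 SE for each of the 40 genes (y axis, grouped by role), for shPAX8-1 in red and shPAX8-2 in blue, and open points were not called at an adjusted p of 0.05. In 786-M1A 33 red and 37 blue points were filled, in OS-LM1 38 and 35, all of them left of 0.

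The hairpins were compared directly to see whether they changed the genes by the same amount. In 786-M1A shPAX8-1 left 22 of the 40 genes lower than shPAX8-2 did and 2 higher, where 22.9% of all genes were lower and 24.2% higher. The 2 higher were GMNN (0.63 ± 0.21, adjusted p = 0.023) and USP1 (0.60 ± 0.23, adjusted p = 0.041). Neither was called with shPAX8-1 replicates 1 and 2 alone (log2 differences 0.22 and 0.06, adjusted p = 0.42 and 0.83), where 22 genes were lower and 0 higher, and with replicates 3 and 4 alone 22 were lower and 6 higher, all set against the 4 shPAX8-2 libraries. With replicates 1 and 2 of both hairpins 18 genes were lower and 0 higher, and with replicates 3 and 4 of both 22 were lower and 3 higher, GMNN, USP1 and RAD51AP1. The USP1 call was lost on leaving out any of 7 libraries (adjusted p 0.053 to 0.14) and the GMNN call on leaving out any of 4 (adjusted p 0.074 to 0.078). The widest differences were in UHRF1 (-1.52 ± 0.18), MCM5 (-1.45 ± 0.20) and CHAF1B (-1.24 ± 0.11). In OS-LM1, where PAX8 itself did not separate the hairpins, 33 genes were lower with shPAX8-1 and 0 higher, against 16.7% and 12.4% of all genes, and the median difference was -0.59 against -0.03 over all genes. Here E2F8 (-1.12 ± 0.15), RRM2 (-1.06 ± 0.09) and GINS2 (-1.02 ± 0.13) differed most. Asking also for an absolute log2 difference over 0.58 left 20 of the 33.

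With sgNTC18 the lines had like sums of the 40 genes, 2810 ± 124 CPM in 786-M1A and 2763 ± 193 in OS-LM1 (SD, n = 4), with single genes on either side. In OS-LM1 14 genes were higher and 9 lower than in 786-M1A, beside 32.0% higher and 31.0% lower of 15665 genes tested over all libraries. TIPIN (1.44 ± 0.18), PCNA (1.33 ± 0.17) and HELLS (1.18 ± 0.17) led the higher genes, and MCM4 (-1.51 ± 0.12), CDCA7 (-1.33 ± 0.14) and DSCC1 (-1.24 ± 0.16) the lower. Removing a trend with GC content gave 12 higher and 15 lower.

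Whether the change with a hairpin differed between lines was tested as the log2 fold change in OS-LM1 minus that in 786-M1A. With shPAX8-1 it was positive for 10 genes and negative for 13, beside 28.2% and 27.1% of all genes, and its median over the 40 genes was 0.01. With shPAX8-2 it was positive for 8 and negative for 7 (27.5% and 25.7% of all genes), with a median of -0.01. These shares of the 40 genes were close to those of all genes or below them. By role, with shPAX8-1, 6 of 12 fork genes were reduced further in OS-LM1 and 1 less, and 4 and 2 of 6 repair genes, 1 and 2 of 7 licensing genes, 0 and 1 of 3 nucleotide genes, 1 and 4 of 9 histone and chromatin genes and 1 and 0 of 3 regulators. The strongest differences with shPAX8-1 were E2F8 (-1.35 ± 0.21, adjusted p = 5.1e-06), PRIM1 (-1.35 ± 0.24, adjusted p = 3.2e-05) and ATAD2 (-1.33 ± 0.19, adjusted p = 1.2e-06).

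PRIM1, the primase subunit that starts the primers, had 10.5, 9.95, 12.2 and 9.62 CPM with sgNTC18, 6.33, 6.69, 8.07 and 8.51 with shPAX8-1 and 6.14, 5.99, 9.37 and 6.0 with shPAX8-2 in 786-M1A. Its OS-LM1 values were 16.5, 18.7, 19.9 and 18.8 CPM with sgNTC18, 6.51, 4.66, 4.25 and 4.86 with shPAX8-1 and 6.23, 7.1, 4.26 and 7.24 with shPAX8-2. The sgNTC18 libraries of OS-LM1 lay above those of 786-M1A, and its reduction was 3.72-fold with shPAX8-1 against 1.41-fold in 786-M1A. Exons of NACA and HSD17B6 overlap PRIM1. With shPAX8-2 the strongest differences were GINS2 (-1.07 ± 0.18, adjusted p = 1.9e-05), POLD3 (-1.03 ± 0.15, adjusted p = 1.9e-06) and, in the other direction, BRIP1 (0.95 ± 0.18, adjusted p = 8.8e-05). POLD3, a subunit of DNA polymerase delta, stood at 30.0, 28.2, 28.6 and 30.4 CPM with sgNTC18, 15.1, 15.3, 17.0 and 13.9 with shPAX8-1 and 22.8, 20.8, 24.9 and 21.3 with shPAX8-2 in 786-M1A. For OS-LM1 the readings were 32.6, 28.9, 33.6 and 30.2 CPM with sgNTC18, 7.0, 8.94, 9.96 and 7.55 with shPAX8-1 and 12.2, 11.8, 11.2 and 11.8 with shPAX8-2. The sgNTC18 levels overlapped, and the OS-LM1 hairpin libraries were all below those of 786-M1A.

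Whether the hairpins differed from each other to the same extent in both lines was tested in the same way, and the difference was positive for 5 genes and negative for 8 (12.7% and 14.5% of all genes). USP1 (-1.14 ± 0.30, adjusted p = 0.0061), BLM (-1.13 ± 0.22, adjusted p = 0.00042) and UNG (0.96 ± 0.16, adjusted p = 8.2e-05) differed most. The count of 8 dropped to 4 or 5 on leaving out any 1 of 8 libraries (786-M1A shPAX8-1 replicates 3 and 4 and shPAX8-2 replicate 1, OS-LM1 shPAX8-1 replicates 1, 2 and 4 and shPAX8-2 replicates 2 and 4).

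**Figure D4:**
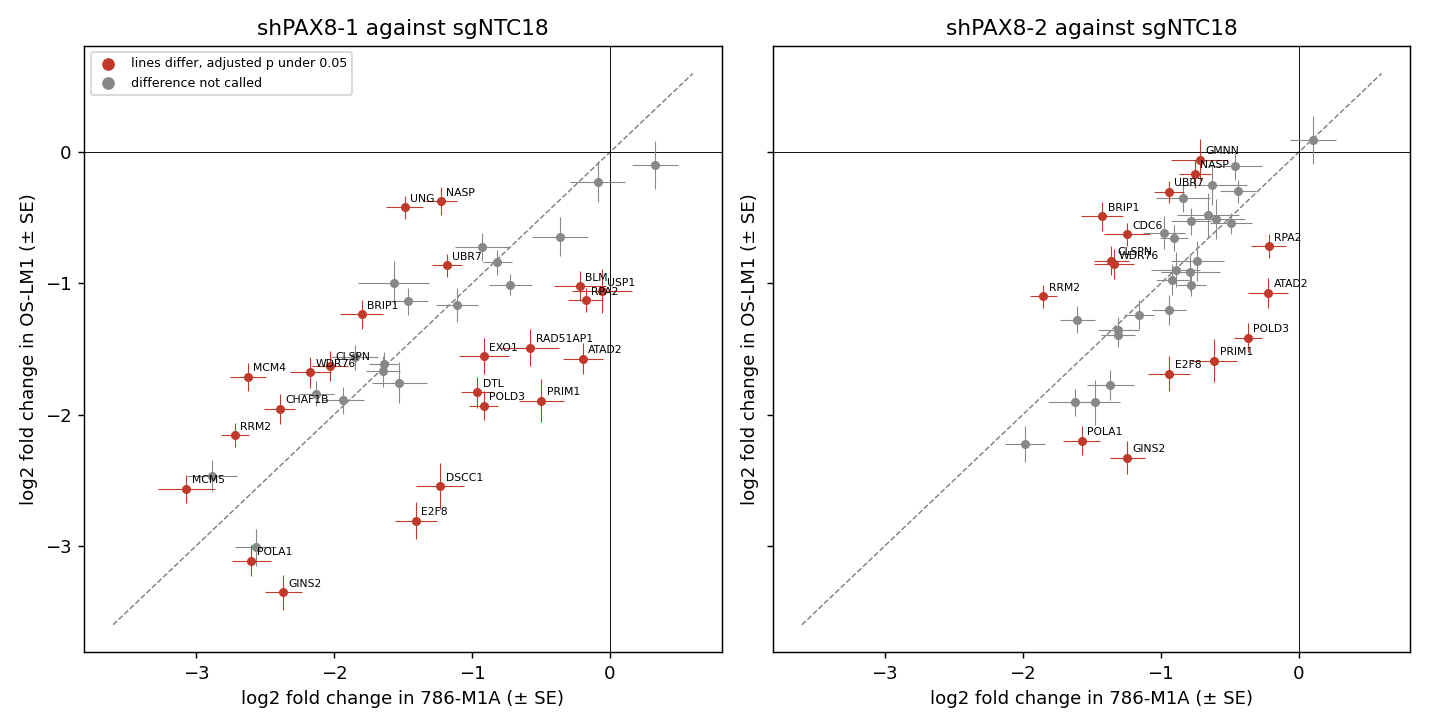
Each point is 1 of the 40 genes, with its log2 fold change against sgNTC18 in 786-M1A on the x axis and in OS-LM1 on the y axis, bars of 1 SE, and a dashed line where both are equal. Named red points differed between lines at an adjusted p under 0.05, with E2F8, PRIM1, ATAD2 and DSCC1 below the line and UNG, NASP and MCM4 above it for shPAX8-1.

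Most replication genes outside the list were lower as well. Of 36 other licensing and fork genes, 23 were lower and 6 higher with shPAX8-1 in 786-M1A, 24 and 1 with shPAX8-2, and in OS-LM1 33 and 1 with shPAX8-1 and 33 and 2 with shPAX8-2. The shares of all genes beside these counts and those of the lists that follow were 34.5% lower and 36.1% higher with shPAX8-1 and 30.9% and 31.5% with shPAX8-2 in 786-M1A, and 35.8% and 35.6%, and 34.1% and 34.3%, in OS-LM1. MCM3, a further helicase subunit (-3.42 ± 0.17), and POLE, the catalytic subunit of DNA polymerase epsilon (-2.94 ± 0.20), changed most with shPAX8-1 in 786-M1A, and CHTF18, of the alternative clamp loader (-3.75 ± 0.22), and the licensing factor CDT1 (-3.44 ± 0.18) in OS-LM1. Of 7 other nucleotide genes 6 were lower in each of the 4 contrasts, and 1 was higher with either hairpin in OS-LM1 and 0 in 786-M1A. Thymidine kinase TK1 led the lower genes with shPAX8-1 (-3.04 ± 0.18 in 786-M1A and -3.30 ± 0.11 in OS-LM1). Of 10 further G1/S regulators 8 were lower and 1 higher with shPAX8-1 and 7 and 1 with shPAX8-2, in either line. The activator E2F2 was lower with shPAX8-1 (-3.18 ± 0.22 in 786-M1A and -2.92 ± 0.21 in OS-LM1), and E2F7, a repressor E2F related to E2F8, was higher with it in 786-M1A (2.37 ± 0.12).

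The 54 G2/M genes of the same package, which mark cells between S phase and the end of mitosis, followed the S-phase genes in OS-LM1 but not with shPAX8-1 in 786-M1A. In OS-LM1, 50 were lower and 1 higher with either hairpin (medians -1.63 and -1.31). In 786-M1A, 30 were lower and 5 higher with shPAX8-2 (median -0.49), and 19 were lower and 18 higher with shPAX8-1 (median 0.03), close to the 34.5% lower and 36.1% higher of all genes, beside the median of -1.43 for the S-phase genes. The summed G2/M level over the summed S-phase level was 2.76, 2.94, 2.90 and 2.89 with sgNTC18 in 786-M1A, 8.31, 7.79, 8.77 and 8.75 with shPAX8-1 and 4.53, 4.79, 4.47 and 4.29 with shPAX8-2. In OS-LM1 the ratios were 2.56, 2.89, 2.48 and 2.68 with sgNTC18, 2.90, 2.72, 2.93 and 3.05 with shPAX8-1 and 2.35, 2.32, 2.49 and 2.33 with shPAX8-2. The ratio was above every sgNTC18 value in all hairpin libraries of 786-M1A, both pairs of shPAX8-1 libraries included, and lay between 2.32 and 3.05 in all 12 libraries of OS-LM1. TTK, a kinase of the spindle checkpoint (2.11 ± 0.26), and CKS1B, a partner of cyclin-dependent kinases (1.92 ± 0.19), were the G2/M genes with the largest change with shPAX8-1 in 786-M1A, and FAM64A (-3.61 ± 0.11) and CDCA3 (-3.04 ± 0.12) in OS-LM1. The change with shPAX8-1 differed between lines for 49 of the 54 (47 lower and 2 higher in OS-LM1, median -1.59), beside 27.1% lower and 28.2% higher of all genes. With replicates 1 and 2 of 786-M1A shPAX8-1 alone 22 G2/M genes were lower and 11 higher, and with replicates 3 and 4 alone 17 and 25.

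**Figure D5:**
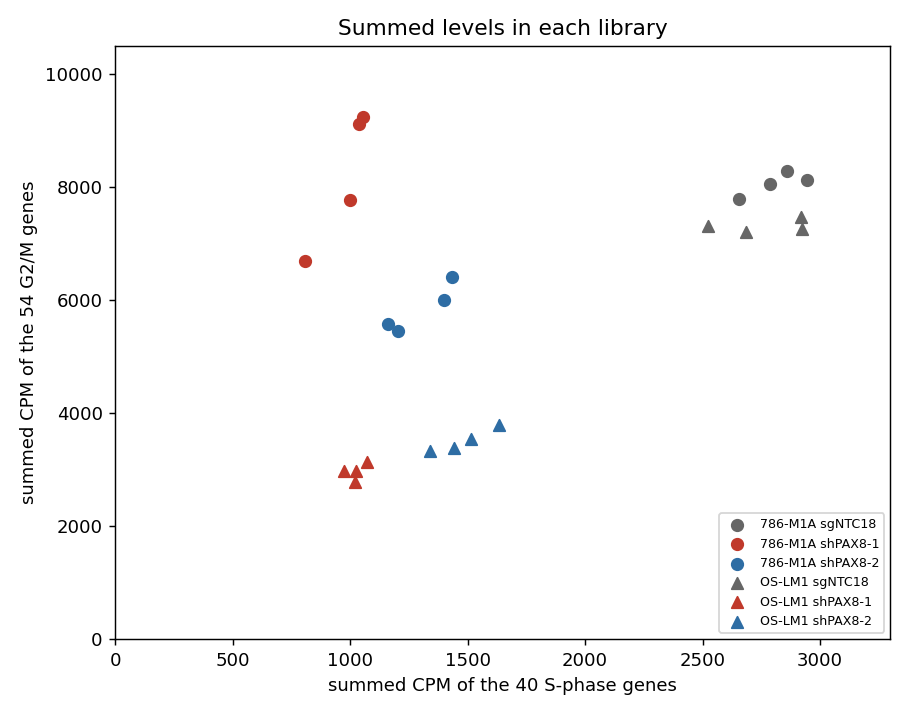
Each point is 1 library, with the summed CPM of the 40 S-phase genes on the x axis and of the 54 G2/M genes on the y axis, coloured by construct, with circles for 786-M1A and triangles for OS-LM1. The hairpin libraries of both lines lay at 806 to 1632 CPM on the x axis, while on the y axis those of OS-LM1 lay at 2778 to 3791 CPM and the shPAX8-1 libraries of 786-M1A at 6702 to 9240.

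GC content moved with the fold changes. Across the 40 genes, whose transcripts have 36.1 to 57.4% GC (median 43.8%), Spearman's rho between GC content and log2 fold change was -0.52 with shPAX8-1 and -0.36 with shPAX8-2 in 786-M1A, and -0.31 and -0.39 in OS-LM1. Over all genes with a GC value it was -0.36, -0.10, -0.32 and -0.27. The genes share libraries and are not independent, so these are descriptions. With the trend over all genes removed, 40 and 39 of the S-phase genes were lower in 786-M1A with shPAX8-1 and shPAX8-2 and 40 and 38 in OS-LM1, and the medians were -1.49, -0.94, -1.76 and -1.09. The 7 genes added with shPAX8-1 in 786-M1A were ATAD2, BLM, CASP8AP2, GMNN, RPA2, TIPIN and USP1, so that CASP8AP2 went from an uncalled positive value to a lower call. G2/M genes then counted 25 lower and 14 higher with shPAX8-1 in 786-M1A. The shares of all genes called with the trend removed are not given here, so these counts have no background beside them. What the GC trend reflects was not tested.

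Promoters were read as a description of the list, many of whose genes are transcribed under E2F transcription factors. Their letters do not depend on the hairpins, and the promoters they are set against include those of genes not tested here. RefSeq (GRCh38.p14) gave a promoter of 300 bases, up to 50 past the start, for 31 of the 40 genes. MCM4, MCM5, RPA2, POLD3, DSCC1, ATAD2, WDR76, CCNE2 and E2F8 had no entry. The letters of an E2F site (TTTGGCGC, TTTCCCGC, TTTCGCGC or TTTGCCGC on either strand, where matches on opposite strands may overlap) stood in 15 of the 31 (48.4%) and in 908 of all 27305 promoters (3.33%). CCAAT boxes (CCAAT on either strand) stood in 22 (71.0%, against 35.7%), and the CHR element of G2/M genes (TTTGAA on either strand) in 2 (6.45%, against 15.4%). The promoters of the 31 were also richer in GC (median 65.0% against 58.3%). The 4 sequences below are the 250 bases before the start in the direction of transcription, with E2F letters and CCAAT boxes in capitals. MCM6 and GINS2 were called in all 6 contrasts within a line and hold E2F letters, CDC45 was called in all 6 and holds 4 CCAAT boxes but none of the E2F letters, and CASP8AP2 holds E2F letters and was called in none.
MCM6: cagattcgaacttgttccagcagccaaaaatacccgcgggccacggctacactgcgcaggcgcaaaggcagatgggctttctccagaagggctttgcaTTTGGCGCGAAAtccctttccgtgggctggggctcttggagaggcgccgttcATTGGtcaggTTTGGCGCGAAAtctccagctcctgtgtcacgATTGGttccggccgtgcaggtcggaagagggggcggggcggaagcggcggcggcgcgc
GINS2: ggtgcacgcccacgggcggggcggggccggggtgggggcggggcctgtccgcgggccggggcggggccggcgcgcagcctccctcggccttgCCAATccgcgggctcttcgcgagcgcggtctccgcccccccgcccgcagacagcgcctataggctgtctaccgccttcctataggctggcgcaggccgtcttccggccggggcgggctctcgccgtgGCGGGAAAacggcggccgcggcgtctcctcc
CDC45: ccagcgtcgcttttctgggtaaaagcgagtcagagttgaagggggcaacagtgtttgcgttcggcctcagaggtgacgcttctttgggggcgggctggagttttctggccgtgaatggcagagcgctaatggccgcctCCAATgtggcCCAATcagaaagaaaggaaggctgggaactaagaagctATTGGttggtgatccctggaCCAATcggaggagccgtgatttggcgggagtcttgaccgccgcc
CASP8AP2: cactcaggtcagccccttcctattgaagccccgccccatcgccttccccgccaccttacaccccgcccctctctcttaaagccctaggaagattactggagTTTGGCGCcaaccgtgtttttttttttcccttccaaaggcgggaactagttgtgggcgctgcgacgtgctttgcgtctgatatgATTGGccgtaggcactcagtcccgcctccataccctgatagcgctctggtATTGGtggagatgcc
MCM6 lies at chr2:135876444-135876693 on the minus strand, GINS2 at chr16:85688955-85689204 on the minus strand, CDC45 at chr22:19479670-19479919 on the plus strand and CASP8AP2 at chr6:89829630-89829879 on the plus strand. Each long run of capitals in MCM6 holds TTTGGCGC and, overlapping it on the other strand, TTTCGCGC. The median log2 fold change of the 15 genes with E2F letters was -1.53 with shPAX8-1 in 786-M1A and -1.63 in OS-LM1, and that of the 16 without them -1.02 and -1.15. With shPAX8-2 the medians lay closer, at -0.94 and -0.83 with the letters and -0.77 and -0.60 without them. Genes without a promoter entry are in neither set. The ranges with shPAX8-1 overlapped (-2.88 to 0.32 and -2.72 to -0.06 in 786-M1A, -3.35 to -0.10 and -3.01 to -0.22 in OS-LM1). A match of letters is a description of the sequence, not of binding. Spellings of an E2F site other than those listed were not searched, so a promoter without the letters may still hold such a site.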

How the data were processed

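RNA from 24 libraries of 786-M1A and OS-LM1 (4 replicates a group) was sequenced on a HiSeq4000. The library kit is KAPA stranded in the labels and Lexogen in the study's methods. The authors aligned reads with Bowtie2 to hg38 and RefSeq transcripts and deposited the expected counts and TPM that RSEM gave for 26475 genes. Tool versions, annotation release and strand setting are not given in the sources used here. Expected counts were rounded and tested in R 4.3.3 with edgeR 4.0.16 (TMM, filterByExpr, robust quasi-likelihood test, Benjamini-Hochberg adjustment over all genes tested), separately for the 12 libraries of each line, and over all 24 for contrasts between lines. CPM were scaled by TMM over the 24 libraries. Abundances of single genes were compared by the deposited TPM. Sums over lists, the ratio of the G2/M sum to the S-phase sum and the breaking of ties between genes used CPM. These are not corrected for transcript length, so the most abundant genes weigh most in the sums. The edgeR fits were also run on simulated counts with known changes. Those changes were in far fewer genes than were called here and were balanced up and down. The simulation therefore does not bear on error rates in these data, and its outcome is not given here. GC content came from GENCODE 44 transcripts, with a value for 87.5% of genes and for all 40 S-phase genes, and promoters from RefSeq.

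Library totals of 11634419 to 52059375 expected counts set the counting error. Alternatives were the size factors of DESeq2, the DESeq2 1.42.0 Wald test, no filter beyond 1 count, removal of a GC trend, a replicate block, stricter thresholds, 1 fit of all libraries and leaving out each library. The 40 genes and all lists were chosen with earlier results of these data known. Values in every library are given for the 2 genes of each role called in the most contrasts within a line (ties by mean CPM), where the rule allowed up to 4, for the 3 genes with the largest called difference between lines in each of 3 tests, and for PAX8. From each other list, the 2 genes with the largest called change in a line could be named. Some items are not reported here.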

Additional observations from a re-analysis of the deposited data

Results flagged for a closer look

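Of 114 groups of 4 libraries examined, 8 held a library far from the other 3 of its group (Dixon's test), where chance flags about 1 in 20 groups, or 5.7 here. MCM4 was high in 786-M1A sgNTC18 replicate 1 (320.1 CPM) and low in OS-LM1 shPAX8-2 replicate 4 (37.4 CPM), the library in which CHAF1B was high (21.1 CPM). CDCA7 was high in OS-LM1 shPAX8-1 replicate 1 (20.8 CPM). In 786-M1A shPAX8-2 replicate 3, PRIM1 (9.37 CPM) and ATAD2 (118.4 CPM) were both high. BLM was low in 786-M1A shPAX8-1 replicate 1 (4.24 CPM) and high in OS-LM1 shPAX8-1 replicate 3 (6.82 CPM).

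The change with a hairpin differed between lines, by an interaction term in edgeR, for 9 genes singled out as the largest of each test. Differences are OS-LM1 minus 786-M1A on the log2 scale. For shPAX8-1 they were E2F8 (-1.35), PRIM1 (-1.35) and ATAD2 (-1.33), and for shPAX8-2 GINS2 (-1.07), POLD3 (-1.03) and BRIP1 (0.95). For shPAX8-1 against shPAX8-2 they were USP1 (-1.14), BLM (-1.13) and UNG (0.96).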

How the results depend on the processing

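No gene called in the main test changed direction under the alternatives run. CASP8AP2, not called in the main test, was called in opposite directions by 2 alternatives with shPAX8-1 in 786-M1A. It was higher with shPAX8-1 replicates 3 and 4 alone and lower with the GC trend removed. Against sgNTC18, the count of lower S-phase genes moved by less than 1.5 times under every alternative, and leaving out each library in turn gave 32 to 34 (786-M1A shPAX8-1), 33 to 37 (786-M1A shPAX8-2), 38 (OS-LM1 shPAX8-1) and 34 to 36 (OS-LM1 shPAX8-2). Higher genes stayed at 0 except for shPAX8-1 in 786-M1A, with 1 from replicates 3 and 4 alone and 0 to 1 on leaving out a library (1 without shPAX8-1 replicate 1).

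For shPAX8-1 against shPAX8-2 in 786-M1A the 2 higher genes became 1 with the GC trend removed, with or without the replicate block, 0 at an adjusted p under 0.01, 0 with shPAX8-1 replicates 1 and 2 alone and 6 with replicates 3 and 4 alone, and 0 with replicates 1 and 2 of both hairpins. Leaving out a library gave 21 to 22 lower and 0 to 4 higher: 1 without sgNTC18 replicate 3 or 4 or shPAX8-2 replicate 4, 0 without shPAX8-2 replicate 1 or 2 or shPAX8-1 replicate 3 or 4, and 4 without shPAX8-1 replicate 1. In OS-LM1 the 33 lower became 20 with an absolute log2 fold change over 0.58, and 31 to 34 on leaving out a library, with 0 higher.

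Between lines with sgNTC18, the 9 lower genes became 15 with the GC trend removed (15 with the replicate block as well) and the 14 higher became 9 with a log2 change over 0.58, and leaving out a library gave 8 to 9 and 14 to 15. For the difference between lines with shPAX8-1, the 10 higher became 5 at an adjusted p under 0.01 and 5 with a log2 change over 0.58, and leaving out a library gave 11 to 14 lower and 8 to 12 higher. With shPAX8-2 leaving out a library gave 7 lower and 6 to 9 higher. For shPAX8-1 against shPAX8-2 the 8 lower became 5 with the GC trend removed, 5 with the replicate block as well and 3 at an adjusted p under 0.01, the 5 higher became 8 and 9 with the GC trend removed without and with the block, and leaving out a library gave 4 to 12 lower and 5 to 7 higher. The cause of these moves was not tested.

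Replicate numbers did not pair the libraries (same-number correlations of deviations -0.39 to 0.35 between groups of a line). Between the hairpins of 786-M1A all 4 were positive (0.045 to 0.35) but 1 was under the 0.1 asked for. With the replicate block, 272 of 274 calls of single genes held and 2 were lost, and the lower S-phase genes with shPAX8-2 in 786-M1A numbered 36. DESeq2 kept 273 and lost 1, and leaving out each library in turn kept 4049 calls and lost 127. Counting error is largest for DSCC1 in the hairpin libraries of OS-LM1, and the p-values do not cover differences between cultures.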
